A study of Danio rerio with 3 samples.

Results

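The Snail, Twist and Zeb genes encode the transcription factors best known for turning epithelial cells into migratory ones, and 10 of them were followed from the start to the end of zebrafish gastrulation. Genes were taken by symbol from the deposited table, 3 of the Snail family (snai1a, snai1b, snai2), 3 of the Twist family (twist1a, twist1b, twist2) and 4 of the Zeb family (zeb1a, zeb1b, zeb2a, zeb2b), and all 10 were present among 35117 genes. The RNA came from whole, untreated wild-type embryos raised at 28.5 degrees and taken at 10 hours post fertilization (hpf; 2 libraries) and at 6 hpf (1 library). The labels name no strain and no number of embryos, and they do not say whether the libraries came from separate clutches. Each gene had 1 level per stage in RPKM (a read density: reads per kilobase, divided by library size), and the 10 hpf level was a single value for both libraries, so the spread between replicates could not be estimated for any value below.

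Snail proteins are zinc finger repressors that bind E-box sequences and are classically known for silencing E-cadherin. Twist proteins are basic helix-loop-helix factors of mesoderm and cranial neural crest that bind E-boxes as dimers with E proteins. Zeb proteins carry clusters of zinc fingers at both ends, also repress E-cadherin, and, in the case of Zeb2, bind Smad proteins. During zebrafish gastrulation mesendoderm cells internalize and migrate while the ectoderm becomes divided into neural plate, neural crest and epidermis, and factors of these families are known from each of those movements and borders.

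The families changed in different ways between the stages. Calls were those of the authors' deposited table at an empirical false discovery rate under 0.05, with the direction of its log2 fold. By that rule 4 of the 10 genes rose (twist1a, twist2, zeb1b and zeb2a), 3 fell (snai1a, snai2 and zeb1a) and 3 were not called (snai1b, twist1b and zeb2b). Of all 35117 genes, 29.5% were called, 9.7% higher and 19.8% lower at 10 hpf, and of the 17494 genes that reached 1 RPKM at either stage, 49.2% were called, 16.3% higher and 32.9% lower. Beside these shares, higher calls were more frequent among the 10 genes and lower calls were close to the share of expressed genes. All but twist1b of the 10 reached 1 RPKM. Whole embryos were sequenced, so fewer cells expressing a gene and less RNA per cell cannot be told apart.

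**Figure D1:**
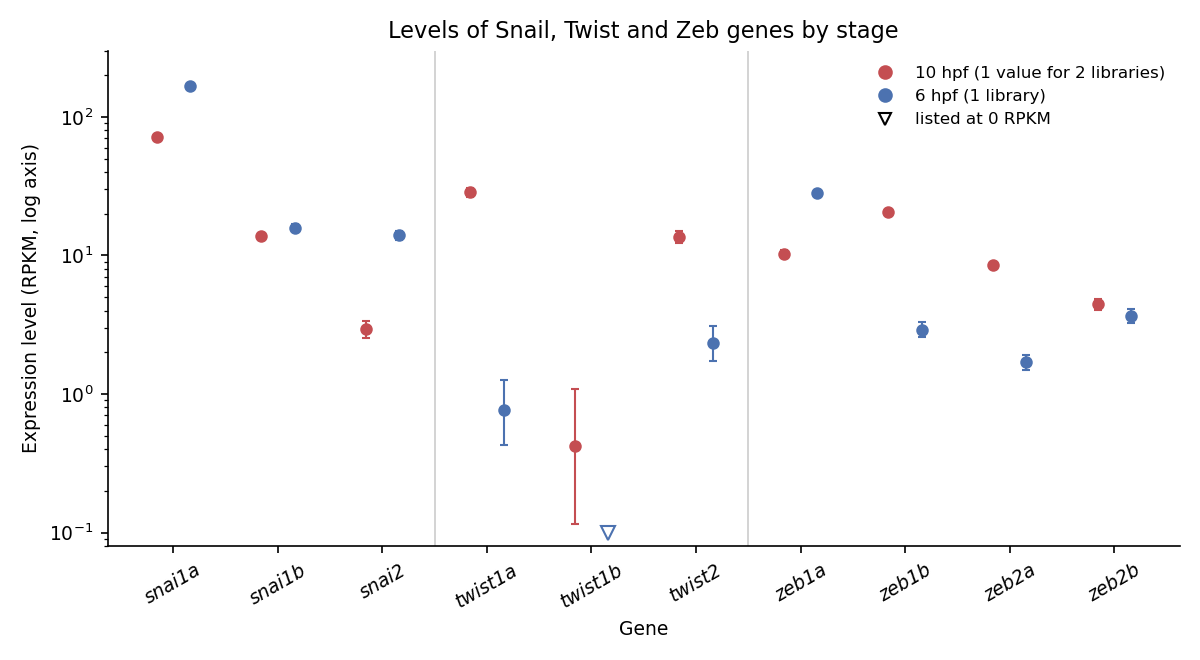
Level of each gene in RPKM (log axis) at 10 hpf (left point) and 6 hpf (right point), with bars for the exact 95% Poisson interval of the inferred reads, which covers counting error only. Among Snail genes snai1a and snai2 lie lower at 10 hpf, twist1a, twist2, zeb1b and zeb2a lie higher, and twist1b is listed at 0 at 6 hpf.

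Read numbers behind these levels were inferred, because the low RPKM values fall on steps worth 1 read. The steps fitted totals of 23243205 reads at 10 hpf and 16991534 reads at 6 hpf. With these totals, 3043 of the 3048 values tried for 10 hpf came out whole within rounding, as did 2430 of the 2437 tried for 6 hpf. A value counted as tried only if it already lay close to whole reads at a nearby starting total. High shares were thus fixed in advance. They are no check of the totals and do not give the share of all low values that fall on steps. For each gene the smallest length that made both of its levels whole reads was taken, so the reads given here are the smallest possible, and the true number can be a whole multiple of them. Intervals on levels and ratios are exact 95% intervals from these reads and cover counting error only, without any spread between replicates. Reads made by PCR are not independent molecules, so the intervals can be too narrow even for counting error. Stage markers moved with the labels: pou5f3 of the blastula stood at 45.7 RPKM at 10 hpf and 783 RPKM at 6 hpf, and meox1 of the somites stood at 22.6 RPKM at 10 hpf and 0.0425 RPKM at 6 hpf.

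A second scale matters for every direction given. Log2 folds of the authors' deposited table were smaller than log2 ratios of the RPKM values. The median difference was 0.60, a factor of 1.52, over 7009 well measured genes, with more than 5 RPKM at 10 hpf and at 6 hpf. In the 9 members measured at both stages the deposited folds were 0.48 to 0.74 smaller. Summed levels below were put on the deposited scale with the median factor, so those values are approximate. The sources used here do not say how the deposited fold was scaled. Directions of all 7 called genes were the same on both scales, whereas that of zeb2b was not. All 7 calls were also kept when the deposited folds and their bounds were centred on the median gene, a step that left 9.7% of all genes called higher and 13.4% called lower. Centring raised every fold, so the 4 higher calls could not be lost, and only the 3 lower calls were at risk.

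Among Snail genes, snai1a (ENSDARG00000056995), which marks the involuting mesoderm of the margin and is needed for cell migration in the gastrula, was by far the most abundant member of the 3 families. Its level was 71.9 RPKM at 10 hpf (3421 reads) and 167 RPKM at 6 hpf (5826 reads). It fell 2.33-fold on the RPKM scale, with a counting interval of 2.23 to 2.43, and its log2 fold was -1.82 in the authors' deposited table. Although lower, it still stood above 97.3% of all genes in the table at 10 hpf, against 98.9% at 6 hpf.

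The duplicate of this gene, snai1b (ENSDARG00000046019, known in RefSeq under the older names sna2 and snail2), was not called. It had 13.7 RPKM at 10 hpf (1292 reads) and 15.8 RPKM at 6 hpf (1089 reads), a ratio of 0.867 (counting interval 0.799 to 0.941). That interval lies below 1 but covers counting error only. The log2 fold was -0.82 in the authors' deposited table, where its conservative bound was 0. The level of snai1a was 5.24 times that of snai1b at 10 hpf (4.91 to 5.59) and 10.6 times at 6 hpf (9.92 to 11.3). This ratio between genes at 1 stage does not depend on how the stages were scaled.

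The decrease was steeper for snai2 (ENSDARG00000040046, also called slug), best known as a neural crest factor in frog and chick. Its level was 2.95 RPKM at 10 hpf (205 reads) and 14.02 RPKM at 6 hpf (713 reads). It fell 4.76-fold (4.07 to 5.58) on the RPKM scale, and its log2 fold was -2.73 in the authors' deposited table. Of the genes at 1 RPKM or more, 6.45% had a more negative log2 RPKM ratio (pseudocount of 1 RPKM) than snai2, and 14.9% than snai1a. At 6 hpf snai2 and snai1b were neighbours in level with overlapping counting intervals, and at 10 hpf snai2 was the lowest gene but 1 of the 10.

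Twist genes were scarce at 6 hpf. The largest change of any member was that of twist1a (ENSDARG00000030402), a factor of mesoderm and head neural crest, at 28.5 RPKM at 10 hpf (760 reads) and 0.769 RPKM at 6 hpf (15 reads). It rose 37.0-fold on the RPKM scale, and the 15 reads at 6 hpf left a wide counting interval of 22.3 to 66.5. Its log2 fold was 4.47 in the authors' deposited table, and 0.554% of genes at 1 RPKM or more had a larger log2 RPKM ratio. In the level order of the 10 genes it stood second at 10 hpf and ninth at 6 hpf.

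The related twist2 (ENSDARG00000078266, also named dermo1), known from notochord and dermal mesenchyme, had 13.6 RPKM at 10 hpf (389 reads) and 2.35 RPKM at 6 hpf (49 reads). It rose 5.80-fold (4.30 to 7.98) on the RPKM scale, and its log2 fold was 1.93 in the authors' deposited table. The order of the 2 genes differed between stages: the level of twist1a was 2.09 times that of twist2 at 10 hpf (1.85 to 2.37) and 0.327 times at 6 hpf (0.170 to 0.593).

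Little was measured of twist1b (ENSDARG00000076010). It had 0.425 RPKM at 10 hpf, which corresponds to as few as 4 reads, and was listed at 0 at 6 hpf, where 3 reads over the same length would be 0.436 RPKM. The 10 hpf level is under that floor and 6 hpf is listed at 0, so no fold is given. If the true length is a multiple of the one used, the reads would be more and the floor lower. Whether a difference was detectable at this depth is therefore not settled. It was not called, and the authors' deposited table gave it a log2 fold of 2.0 with a conservative bound of 0. At 10 hpf it made up 0.999% of the summed Twist level. RefSeq lists Twist1b as an older name of twist1a and Twist1a as an older name of twist1b, so the names here go by the identifiers given.

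**Figure D2:**
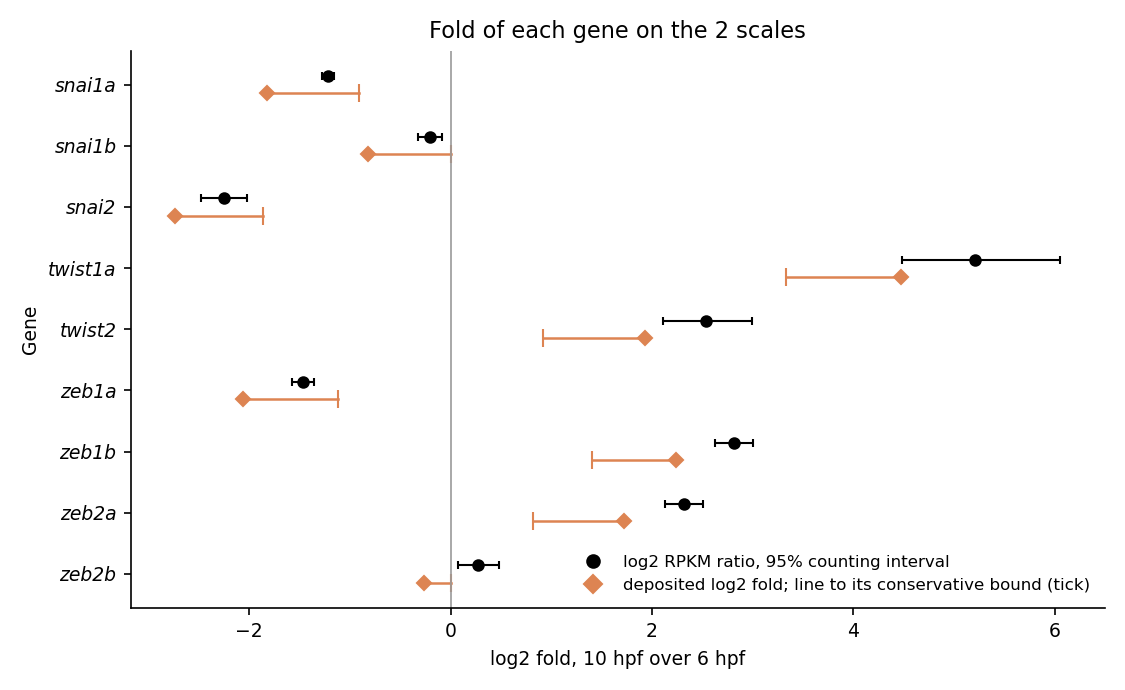
For the 9 genes above 0 at both stages, the log2 ratio of RPKM values (10 hpf over 6 hpf, black, with the 95% counting interval) and the log2 fold of the authors' deposited table with a line to its conservative bound (orange). The bound is away from 0 for the 7 called genes and at 0 for snai1b and zeb2b, and zeb2b lies on opposite sides of 0 on the 2 scales.

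In the Zeb family the duplicates of zeb1 moved in opposite directions. The gene zeb1b (ENSDARG00000013207, once named kheper), a homologue of vertebrate ZEB1 known from the zebrafish neuroectoderm, had 20.5 RPKM at 10 hpf (2526 reads) and 2.92 RPKM at 6 hpf (263 reads). It rose 7.02-fold on the RPKM scale, with a counting interval of 6.18 to 8.003, and its log2 fold was 2.24 in the authors' deposited table. Of genes at 1 RPKM or more, 2.80% had a larger log2 RPKM ratio.

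Its duplicate zeb1a (ENSDARG00000016788) had 10.2 RPKM at 10 hpf (990 reads) and 28.3 RPKM at 6 hpf (2003 reads). It fell 2.77-fold (2.56 to 2.99) on the RPKM scale, and its log2 fold was -2.06 in the authors' deposited table. The level of zeb1b was 2.005 times that of zeb1a at 10 hpf (1.86 to 2.16) and 0.103 times at 6 hpf (0.0904 to 0.117). Thus zeb1b provided 66.7% of the summed zeb1 level at 10 hpf and 9.35% at 6 hpf. The sum itself was 30.7 RPKM at 10 hpf and 31.2 RPKM at 6 hpf, a ratio of 0.984 on the RPKM scale and 0.649 on the scale of the deposited fold.

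The other pair, named sip1 in older work and known for the Smad-binding factor Zeb2 of neural plate and neural crest, differed from this. The level of zeb2a (ENSDARG00000062338) was 8.47 RPKM at 10 hpf (1787 reads) and 1.70 RPKM at 6 hpf (262 reads). It rose 4.99-fold (4.38 to 5.70) on the RPKM scale, and its log2 fold was 1.72 in the authors' deposited table. The level of zeb2b (ENSDARG00000078416) was 4.43 RPKM at 10 hpf (513 reads) and 3.66 RPKM at 6 hpf (310 reads), and it was not called. Its ratio was 1.21 on the RPKM scale (1.05 to 1.40), but the log2 fold was -0.26 in the authors' deposited table, so no direction is given. The level of zeb2a was 1.91 times that of zeb2b at 10 hpf (1.73 to 2.11) and 0.464 times at 6 hpf (0.392 to 0.548), so this pair, too, had a different leading gene at each stage.

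Reads that match both copies of a duplicated gene could be assigned to either, and the sources used here do not say how they were counted. An opposite movement within a pair was not rare in the table. Among 803 pairs of symbols that differ only in a final a or b after a digit, with both genes at 1 RPKM or more at either stage, both genes were called in 185, of which 59 went in opposite directions (7.35% of all 803 pairs), 60 were both higher and 66 both lower. In size the zeb1 change stood further out. The ratio of its 2 genes differed 19.4-fold between the stages, and 38 of the 775 pairs above 0 in all values (4.90%, zeb1 included) had a difference at least that large. For zeb2 the difference was 4.12-fold (23.7% of pairs at least as large), for snai1 it was 2.02-fold (53.5%), and the median pair had 2.17-fold. A gene of a pair could be close to the floor at its other stage, where few reads can make the difference between stages large. The comparison with other pairs was chosen after the values of zeb1 had been seen, and pairs were taken by name without a check of ancestry.

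**Figure D3:**
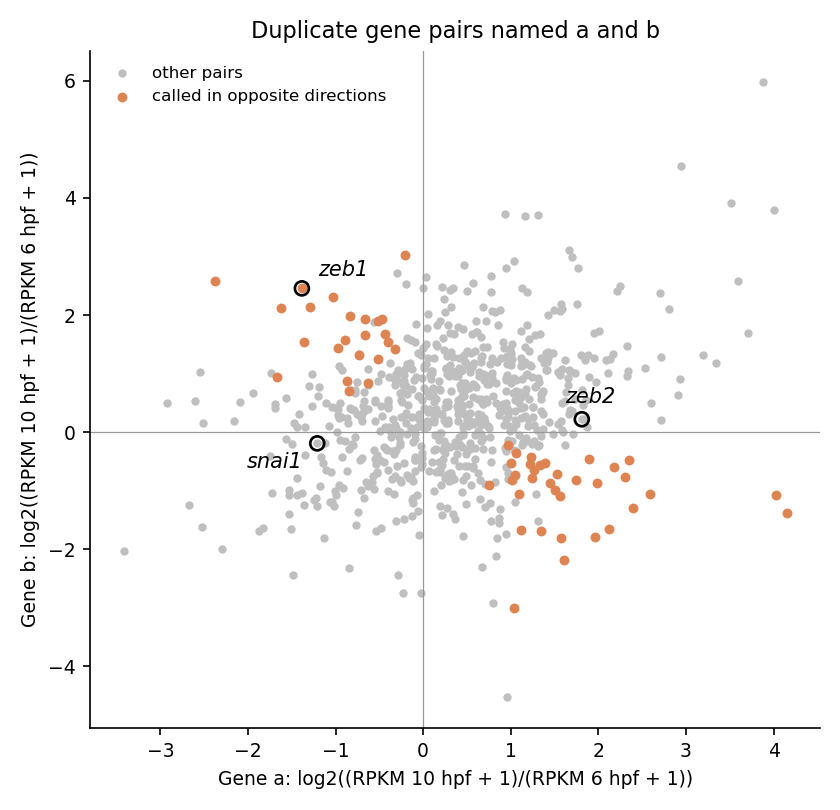
Log2 ratio of RPKM values (10 hpf over 6 hpf, pseudocount of 1 RPKM) of the b gene against that of the a gene in 775 pairs of symbols, with pairs called in opposite directions in orange and the pairs zeb1, zeb2 and snai1 ringed. The zeb1 pair lies in the upper left, at -1.38 for zeb1a and 2.46 for zeb1b.

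The families made up different parts of the summed level at the 2 stages. Summed Snail levels were 88.5 RPKM at 10 hpf and 197 RPKM at 6 hpf, summed Twist levels 42.5 RPKM at 10 hpf and 3.12 RPKM at 6 hpf, and summed Zeb levels 43.6 RPKM at 10 hpf and 36.6 RPKM at 6 hpf. Snail genes held 50.7% of the summed level of all 10 genes at 10 hpf and 83.2% at 6 hpf, Twist genes 24.4% at 10 hpf and 1.32% at 6 hpf, and Zeb genes 24.98% at 10 hpf and 15.4% at 6 hpf. Such shares within a stage are untouched by the scaling between stages. The ratio of the sums was 0.449 for Snail and 13.6 for Twist on the RPKM scale, and 0.296 and 8.996 on the scale of the deposited fold. For Zeb it was 1.19 on the RPKM scale and 0.786 on that of the deposited fold, so the summed Zeb level has no direction that holds on both.

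**Figure D4:**
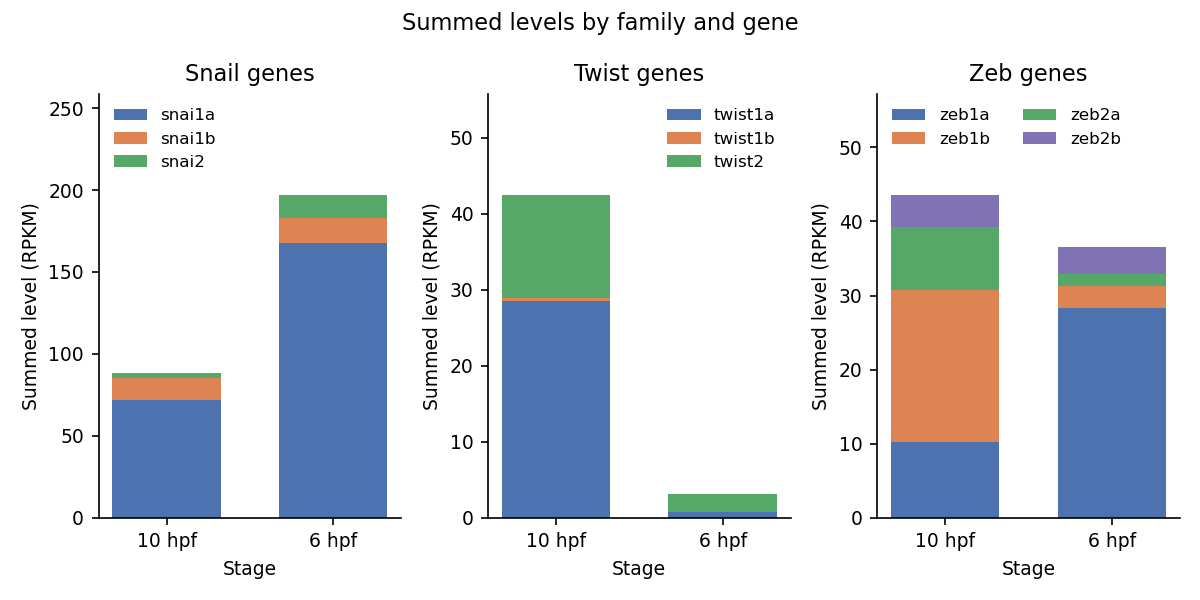
Summed level in RPKM of each family at 10 hpf (left bar) and 6 hpf (right bar), stacked by gene, with a separate axis from 0 for each family. The Snail bar is mostly snai1a at both stages, Twist is almost absent at 6 hpf, and the Zeb bars are of similar height (43.6 RPKM at 10 hpf and 36.6 RPKM at 6 hpf) with zeb1b the largest part at 10 hpf and zeb1a at 6 hpf.

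The order of levels was accordingly rearranged. At 10 hpf it ran snai1a, twist1a, zeb1b, snai1b, twist2, zeb1a, zeb2a, zeb2b, snai2 and twist1b, and only snai1b and twist2 were neighbours whose counting intervals overlapped. At 6 hpf it ran snai1a, zeb1a, snai1b, snai2, zeb2b, zeb1b, twist2, zeb2a, twist1a and twist1b. Counting intervals of neighbours there overlapped between snai1b and snai2, from zeb2b through zeb1b and twist2 to zeb2a, and between twist1a and twist1b. The median log2 RPKM ratio of the 10 genes, with a pseudocount of 1 RPKM, was 0.37, beside 0.14 over all genes at 1 RPKM or more. It lies midway between zeb2b and twist1b, for which no direction and no fold are given, so it describes no gene that was called.

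**Figure D5:**
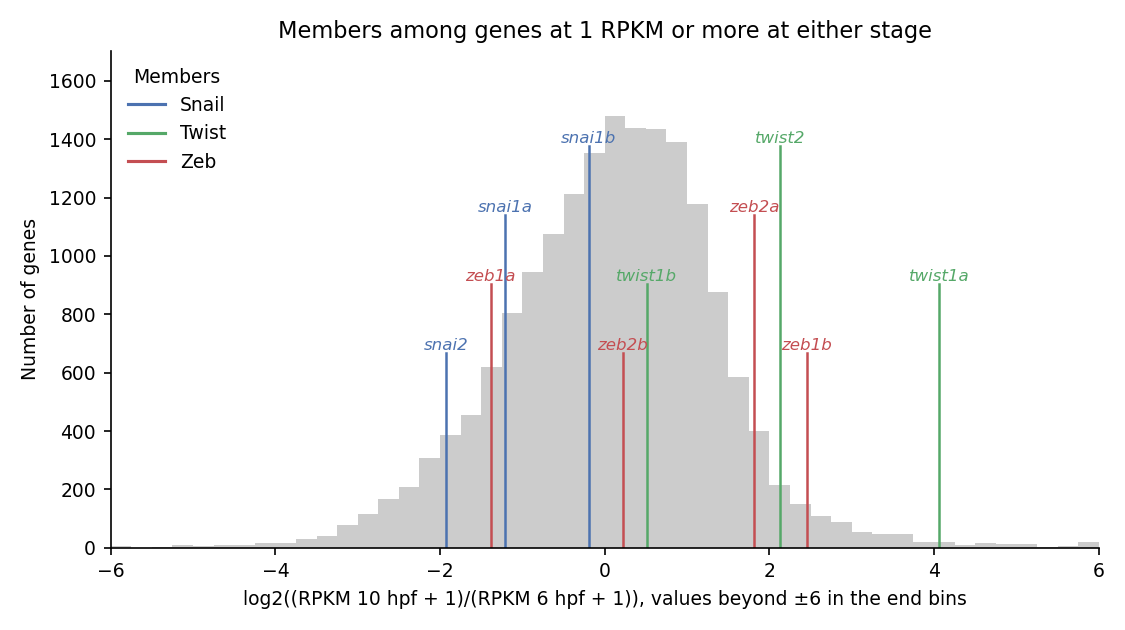
Number of genes by log2 RPKM ratio (10 hpf over 6 hpf, pseudocount of 1 RPKM) among 17494 genes at 1 RPKM or more at either stage (grey), with a line at the ratio of each of the 10 genes, of which twist1b did not itself reach that level. Snail genes lie below 0, from -1.93 to -0.19, and twist1a lies far to the right at 4.06.

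Over the 2 stages the genes closest to the 3 members with the highest level at whichever stage was higher, by distance between log2(RPKM + 1) values, were sult6b1 and znf185 for snai1a, anxa2a and tcf15 for twist1a, and helb and znf1083 for zeb1a. With only 2 stages such likeness is weak: 16 genes lay within 0.25 of snai1a, 4 of twist1a and 59 of zeb1a. The closest to twist1a, anxa2a, had 28.7 RPKM at 10 hpf and 0.826 RPKM at 6 hpf.

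Genes that act with these factors were counted by the same call. Each count stands beside the share over genes at 1 RPKM or more (16.3% higher, 32.9% lower, 49.2% in either direction), unless all genes are named. Most lists also hold genes under 1 RPKM, so the sets compared are not fully alike. That level was reached by 16 of 17 corepressors, 7 of 8 genes for E and Id proteins and 24 of 24 epithelial genes. It was also reached by 14 of 17 upstream genes, 12 of 16 mesenchymal genes and 11 of 14 neural crest genes. These shares are before centring, and no share of expressed genes after centring was computed. Over all genes, lower calls went from 19.8% to 13.4% on centring. Of 17 corepressors that Snail and Zeb proteins recruit, 1 rose, 1 fell and 15 were not called, fewer calls than the 49.2% of expressed genes. Those not called included hdac1, a histone deacetylase, at 277 RPKM at 10 hpf and 279 RPKM at 6 hpf. Of these 17, the corepressor gene rcor1 rose, at 42.8 RPKM at 10 hpf and 9.89 RPKM at 6 hpf, and ezh2, a histone methyltransferase, fell, at 27.2 RPKM at 10 hpf and 53.8 RPKM at 6 hpf. Among 20 genes for the stability and nuclear entry of Snail protein, 4 rose, 2 fell and 14 were not called, and 13 of the 20 reached 1 RPKM. Calls were about as frequent as over all genes (29.5%) and less frequent than among expressed genes (49.2%). The cyclooxygenase gene ptgs1, which makes the precursor of a prostaglandin known to stabilize Snail in the zebrafish gastrula, rose, at 7.39 RPKM at 10 hpf and 0.170 RPKM at 6 hpf. The other cyclooxygenase gene of the list, ptgs2a, was not called at 7.89 RPKM at 10 hpf and 10.02 RPKM at 6 hpf. Its duplicate ptgs2b, outside this list, was called lower, with a log2 RPKM ratio of -1.52 (pseudocount of 1 RPKM). The casein kinase gene csnk1a1 fell, at 104 RPKM at 10 hpf and 249 RPKM at 6 hpf, and the kinase gene gsk3ab was not called at 59.2 RPKM at 10 hpf and 60.9 RPKM at 6 hpf.

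Partners of Twist proteins were counted as well. Of 8 genes for E proteins, which dimerize with Twist, and Id proteins, which sequester E proteins, 1 rose, 4 fell and 3 were not called. Among expressed genes 16.3% were higher and 32.9% lower before centring. After the folds were centred on the median gene, 3 of the lower calls were kept. The gene that rose was tcf12, for an E protein, at 7.31 RPKM at 10 hpf and 1.68 RPKM at 6 hpf. The E protein gene tcf3a fell, at 9.72 RPKM at 10 hpf and 19.9 RPKM at 6 hpf, as did id4, at 2.31 RPKM at 10 hpf and 5.68 RPKM at 6 hpf, while id1, a BMP target, was not called at 431 RPKM at 10 hpf and 337 RPKM at 6 hpf. Among 12 related factors, 3 rose, 0 fell and 9 were not called, beside 9.7% higher over all genes, and 3 of the 12 reached 1 RPKM. Of the helix-loop-helix factors among them, tcf15 of the somites rose, at 26.1 RPKM at 10 hpf and 0.791 RPKM at 6 hpf, and hand2 rose, at 9.73 RPKM at 10 hpf and listed at 0 at 6 hpf, while tcf21, scxa and msc were not called, with no value above 0.0571 RPKM at 10 hpf and each listed at 0 at 6 hpf. A further Twist gene, twist3, was not called at 0.188 RPKM at 10 hpf and a listed 0 at 6 hpf.

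Upstream signals and mesoderm regulators had 0 of 17 genes higher, 6 lower and 11 not called, a share of lower calls near the 32.9% of expressed genes. After centring 5 of the lower calls were kept. The Nodal co-receptor gene tdgf1 fell, at 18.9 RPKM at 10 hpf and 93.1 RPKM at 6 hpf, and the T-box gene tbx16 fell, at 34.4 RPKM at 10 hpf and 123 RPKM at 6 hpf. The more abundant of 2 loci annotated as wnt8a was not called at 79.3 RPKM at 10 hpf and 42.6 RPKM at 6 hpf.

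Epithelial genes, the classical targets of repression by these families, had 3 of 24 members higher, 13 lower and 8 not called. Among genes at 1 RPKM or more, 16.3% were higher and 32.9% lower before centring. After centring 11 of the epithelial lower calls were kept. E-cadherin (cdh1) fell, at 29.2 RPKM at 10 hpf and 74.5 RPKM at 6 hpf, a 2.55-fold difference on the RPKM scale. The occludin gene oclna fell 5.70-fold, at 15.2 RPKM at 10 hpf and 86.4 RPKM at 6 hpf. Its duplicate oclnb was not called at 19.1 RPKM at 10 hpf and 18.6 RPKM at 6 hpf. In contrast to cdh1 and oclna, grhl2b rose, at 7.19 RPKM at 10 hpf and 0.366 RPKM at 6 hpf. The mammalian homologue of grhl2b is known to oppose ZEB1. The duplicate of grhl2b, grhl2a, outside this list, was called lower, with a log2 RPKM ratio of -2.37 (pseudocount of 1 RPKM). The related grhl3 fell too, at 13.4 RPKM at 10 hpf and 48.8 RPKM at 6 hpf. The keratin gene krt4 of the outer layer was not called at 2305 RPKM at 10 hpf and 1274 RPKM at 6 hpf. Of 16 mesenchymal adhesion and matrix genes 7 rose, 2 fell and 7 were not called, beside the same 16.3% higher and 32.9% lower. The genes that fell were the integrin gene itga5, at 10.4 RPKM at 10 hpf and 73.8 RPKM at 6 hpf, and the collagen gene col1a1a, at 0.0786 RPKM at 10 hpf and 2.21 RPKM at 6 hpf. The fibronectin gene fn1b rose, at 40.03 RPKM at 10 hpf and 0.765 RPKM at 6 hpf, and cdh11, a mesenchymal cadherin, rose, at 9.55 RPKM at 10 hpf and 0.0738 RPKM at 6 hpf. N-cadherin (cdh2) was not called at 110.0 RPKM at 10 hpf and 63.1 RPKM at 6 hpf.

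Of 14 neural crest genes 5 were higher, 3 lower and 6 not called, beside 16.3% higher and 32.9% lower among expressed genes. The border gene pax3a rose, at 7.17 RPKM at 10 hpf and 0.0921 RPKM at 6 hpf, and msx2b rose, at 5.41 RPKM at 10 hpf and 0.369 RPKM at 6 hpf. The genes that fell were foxd3, at 13.99 RPKM at 10 hpf and 26.3 RPKM at 6 hpf, crestin, at 1.69 RPKM at 10 hpf and 4.62 RPKM at 6 hpf, and pax7a, at 0.0323 RPKM at 10 hpf and 1.26 RPKM at 6 hpf. The factor tfap2a was not called at 85.2 RPKM at 10 hpf and 53.5 RPKM at 6 hpf. These lists were described by their counts alone, and a relation between them and the levels of the Snail, Twist and Zeb genes was not tested.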

How the data were processed

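The authors deposited RPKM values, 1 for both 10 hpf libraries and 1 for 6 hpf, as the column names say. The log2 fold of 10 hpf over 6 hpf, its conservative bound (GFOLD with a setting of 0.01) and an empirical false discovery rate, which ranges like a q-value, were likewise deposited and named per the file headers. TopHat2 2.1.1 and build GRCz10 are named in the submitters' processing notes, but no counter or annotation is given there.

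Library totals were inferred from low RPKM values of up to 5 reads, and lengths from 40 to 25000 bases were searched for whole reads. RefSeq lengths of all 13 mitochondrial protein genes were among the lengths found, in a search with a smaller maximum length. There 0.101% to 12.97% of all lengths tried fitted, so the agreement is weak for the genes at the upper end. At most 0.119 accidental solutions were expected for a member below the length chosen. The search was tested on simulated data, but from starting totals close to the true ones and with a smaller maximum length. The coarse first search for the totals was thus not tested. Intervals are exact 95% Poisson or conditional binomial (Clopper-Pearson) intervals. Python 3.11.15, scipy 1.17.1 and pandas 2.3.3 were used.

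No test was run, because 1 value per stage leaves no replicate spread. The members and gene lists were chosen with earlier results of these data known. Lists were matched by symbol, and 7 symbols were not matched. From each list the text names up to 2 called genes with the largest fold at 5 RPKM or more, the most abundant gene not called, and cdh1. Further list genes were named after their values had been seen (tcf21, scxa, msc, itga5, col1a1a, foxd3, crestin, pax7a, grhl3, ptgs2a, tcf12, oclnb), as were grhl2a and ptgs2b from outside the lists. Centring subtracted the median deposited fold of genes at 5 RPKM or more (-0.50) from each fold and its bound. RPKM ratios were centred on their own median over the same genes (0.089). Alternatives were a false discovery rate under 0.01, an absolute log2 fold of at least 1, a minimum of 1 or 5 RPKM, centred folds, and pseudocounts of 0.1 and 5 RPKM.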

Additional observations from a re-analysis of the deposited data

How the results depend on the processing

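The counts of 4 members higher and 3 lower were the same at a false discovery rate under 0.01, with an absolute log2 fold of at least 1, with a minimum of 1 or 5 RPKM, after centring and, as an alternative chosen after seeing the data, after the folds were shifted to the RPKM scale. Centring and shifting raised every fold, so they could remove lower calls only and could not add any. The median log2 RPKM ratio of the 10 genes (0.37) lies between zeb2b and twist1b, which were not called, and was 1.26 with a pseudocount of 0.1, 0.12 with a pseudocount of 5, 0.28 when centred on the median gene and 0.73 on the log2 fold of the authors' deposited table. A pseudocount cannot change the sign of a ratio, so the signs of single genes under other pseudocounts say nothing about stability. For the RPKM ratios, centring (also behind the 0.28) subtracted their own median of 0.089 over genes at 5 RPKM or more. After it, 0 of the 10 ratios changed sign. None could, because no member ratio lay between 0 and 0.089. On the deposited fold zeb2b did change sign, at -0.26, and with that fold centred it stood at 0.24. Leaving out a replicate was not run, since both 10 hpf libraries share 1 value and 6 hpf has 1 library. No paired analysis was possible because the table holds no values per library. Depth limits twist1b, which can rest on as few as 4 reads, and the size of the twist1a change, which rests on as few as 15 reads at 6 hpf.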

Other observations

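Besides zeb1, 4 of the 775 pairs had a ratio between their genes that differed at least as much between the stages while their summed level stayed within 1.1-fold on the RPKM scale, and they were picked after their values had been seen. On the scale of the deposited fold every such sum would be lower at 10 hpf by a further factor of about 1.52, the median over genes. In the pair msi2, Musashi-type RNA-binding proteins, msi2a rose, at 1.40 RPKM at 10 hpf and 0.187 RPKM at 6 hpf, and msi2b fell, at 0.447 RPKM at 10 hpf and 1.55 RPKM at 6 hpf. In the pair coro1, coronin actin-binding proteins, coro1a fell, at 0.119 RPKM at 10 hpf and 1.01 RPKM at 6 hpf, and coro1b rose, at 1.13 RPKM at 10 hpf and 0.309 RPKM at 6 hpf. In the pair st14, matriptase-type membrane proteases, st14b rose, at 1.74 RPKM at 10 hpf and 0.0194 RPKM at 6 hpf, while st14a was called lower at 10.6 RPKM at 10 hpf and 13.5 RPKM at 6 hpf. In the pair amotl2, angiomotin-like proteins, amotl2b rose, at 7.67 RPKM at 10 hpf and 0.315 RPKM at 6 hpf, and amotl2a was not called at 29.9 RPKM at 10 hpf and 37.0 RPKM at 6 hpf. Reads were not inferred for these pairs, and 1 RPKM was 17.0 reads per kilobase at 6 hpf and 23.2 at 10 hpf. Levels such as those of st14b and msi2a at 6 hpf and coro1a at 10 hpf can rest on few reads.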
